A study of Mus musculus with 18 samples.

Results

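Interferon-stimulated genes were followed through muscle injury in cells sorted from Sdc4-/- and wild type (WT) mouse muscle. The set was a list of 35 gene symbols, chosen with earlier results of these data known. 33 of the 35 were measured, among 18194 genes with a probe set of their own. Isg15 was matched only by a probe set that also carries other symbols, and Ifi44 by none, so both were left without a value. For each of the 33 the probe set with the highest mean over the arrays was used, out of 51 probe sets in all. Every value below is a GCRMA log2 intensity, on which a difference of 1 is a doubling, and probe sets near 2 to 4 lie at the floor of the scale, which sets the size of any difference against them.

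The cells were sorted for syndecan-3 from digested tibialis anterior muscle of female mice (3 to 6 months old per the labels), either uninjured (0 h) or injected with barium chloride 12 h or 48 h earlier, and RNA was amplified in 2 rounds before hybridization. Sdc4-/- mice lack syndecan-4, a cell-surface heparan sulphate proteoglycan, in every cell and were of the C57Bl/6 strain, with 3 arrays at each time. WT mice were C57Bl/6 x DBA2, with 2 arrays at 0 h and 3 at each later time. The study removed an uninjured WT array without saying which. It was taken here to be replicate 3. The strain therefore differed together with the genotype, and their contributions to any difference between Sdc4-/- and WT cells cannot be told apart. The labels do not say that each array came from a separate animal, so p-values measure the spread between arrays.

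Type I and type II interferons bind surface receptors and signal through Janus kinases to STAT proteins. STAT proteins together with IRF9 form the complex ISGF3, which binds the interferon-stimulated response element (ISRE), whereas STAT dimers bind the gamma-activated site (GAS). The genes they switch on include sensors of viral nucleic acid, proteins that block viral entry or translation, GTPases that act on intracellular pathogens, chemokines and the machinery of antigen presentation, and several of them feed back on the pathway itself. Macrophages, which enter injured muscle in large numbers, are strong producers of such transcripts.

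The ISRE and GAS letters are shown for members whose values are described below, so that the pathway and the sequences can be seen side by side. RefSeq promoters (GRCm38.p6, 250 bases before to 50 after the start site) were listed for 29 of the 35 members. The letters GAAANNGAAA, searched on both strands, occurred in 16 of these 29 (55.2%), against 3.99% of 27025 genes of the same table. TTCNNNGAA, which reads the same on both strands, occurred in 7 of 29 (24.1%), against 9.55% of genes, and 4 members held both. In each window the capitals mark the match, which reads TTTCNNTTTC where it lies on the opposite strand of the gene.
Ifit1, ISRE, chr19:34640775-34640804, plus strand: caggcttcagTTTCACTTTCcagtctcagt
Ifit1, second ISRE, chr19:34640794-34640823, plus strand: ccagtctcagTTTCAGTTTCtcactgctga
Ifit3, ISRE, chr19:34583363-34583392, plus strand: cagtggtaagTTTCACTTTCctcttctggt
Rsad2, ISRE, chr12:26456553-26456582, minus strand: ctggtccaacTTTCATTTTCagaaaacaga
Bst2, ISRE, chr8:71537577-71537606, minus strand: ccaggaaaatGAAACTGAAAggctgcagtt
Irgm1, ISRE, chr11:48871425-48871454, minus strand: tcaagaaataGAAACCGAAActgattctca
Ifih1, ISRE, chr2:62646206-62646235, minus strand: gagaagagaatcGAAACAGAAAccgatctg
B2m, ISRE, chr2:122147538-122147567, plus strand: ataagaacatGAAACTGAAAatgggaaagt
Irf1, GAS, chr11:53769914-53769943, plus strand: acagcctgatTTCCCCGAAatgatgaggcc
Ifit2, GAS, chr19:34550444-34550473, plus strand: catgggagcTTCCTGGAAgaatggataaaa
The first ISRE base lay 104 and 85 bases before the start site in Ifit1, 156 bases before it in Ifit3, 120 in Rsad2, 124 in Bst2 and 24 in Irgm1, and 32 bases after it in Ifih1. Bst2 and Irgm1 each hold a further ISRE match that overlaps the one shown. Mx1, Mx2, Usp18, Iigp1, Zbp1 and Parp14 had no entry in the promoter table. A match describes these letters only.

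The arrays differed in ways that run alongside the groups. The mean of the 18 hybridization-control probe sets, which read control transcripts added to every sample, lay at 9.72 to 10.30, 9.71 to 12.33 and 8.74 to 10.43 at 0, 12 and 48 h in Sdc4-/- cells, against 7.86 to 8.94, 13.54 to 14.30 and 11.68 to 12.50 in WT cells. Probe sets above 5 numbered 5076 to 7864 on the Sdc4-/- arrays and 2832 to 7620 on the WT arrays, with the 3 WT 12 h arrays lowest (2832 to 3982). Of the Sdc4 probe sets, the first lay between 2.41 and 2.60 on all 9 Sdc4-/- arrays, against 5.59, 7.62 and 6.48 in WT cells at 48 h and 2.36 to 3.64 in WT cells at 0 and 12 h. The other read 3.39 to 6.53 on the Sdc4-/- arrays and 6.88 to 8.11 in WT cells at 48 h, and whether either lies in the deleted part is not given in the sources used here. Of 14 measured macrophage markers 12, 9 and 13 averaged 4 or more at 0, 12 and 48 h in Sdc4-/- cells, against 10, 5 and 13 in WT cells. Of 15 satellite cell markers 4 did so at each time in Sdc4-/- cells, against 9, 4 and 5 at 0, 12 and 48 h in WT cells. The 15 include Sdc4 itself, which is among those counted in every group. Its brighter probe set averaged 4.20, 4.71 and 4.92 at 0, 12 and 48 h in Sdc4-/- cells and 4.64, 4.03 and 7.66 in WT cells. Pax7 lay between 2.38 and 2.71 on every Sdc4-/- array, against 4.59 and 5.15 in WT cells at 0 h and 2.45 to 2.79 at the later times. In such bulk samples fewer cells of a type and less RNA per cell cannot be told apart.

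At 48 h after injury, interferon-stimulated genes of several roles were higher in Sdc4-/- cells than in WT cells. 13 of the 33 measured members passed the test as higher in Sdc4-/- cells (limma, adjusted p under 0.05 over all 45101 probe sets) and 0 as lower. Of all genes 4.7% were called higher and 1.43% lower. Of those averaging 4 or more 10.2% were called higher, against 10 of the 28 members averaging 4 or more. The median difference over the members was 1.72 on the log2 scale, against -0.06 over all genes and 0.61 over genes averaging 4 or more. Of the members' differences 30 of 33 were positive, against 7416 of 18194 for all genes. Among those averaging 4 or more 26 of 28 members were positive, against 4608 of 6279 genes. The called members span transcription factors (Irf7, Irf9), sensors (Ifih1, Oasl1, Oasl2), antiviral effectors (Rsad2, Bst2, Ifit2, Ifit3, Mx1), the ISG15 protease Usp18, the GTPase Irgm1 and the peptide transporter Tap1. At this time 0 of 14 macrophage markers were called by limma (1 at an unadjusted p under 0.05), with a median difference of 0.30. The part of that list in the members' difference was not tested. The hybridization controls were lower in Sdc4-/- than in WT cells. With the mean of those controls as a covariate 0 of 33 members were called (17 higher at an unadjusted p under 0.05) and 0.599% of genes, while the median over the members was 1.76. Further quantile normalisation called 2 members higher at this time, and 1.3% of all genes. Irf7, Ifit2, Ifit3, Rsad2, Bst2 and Usp18 passed in each of the 17 fits that left out 1 array, while without Sdc4-/- 48 h replicate 3 the test called 6 members in all. With only the compared groups fitted 4 members were called, 2 of them among the 13, and 2.65% of all genes were called higher. In that fit Irf7 kept its call, while Ifit2, Ifit3, Rsad2, Bst2 and Usp18 did not pass.

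**Figure D1:**
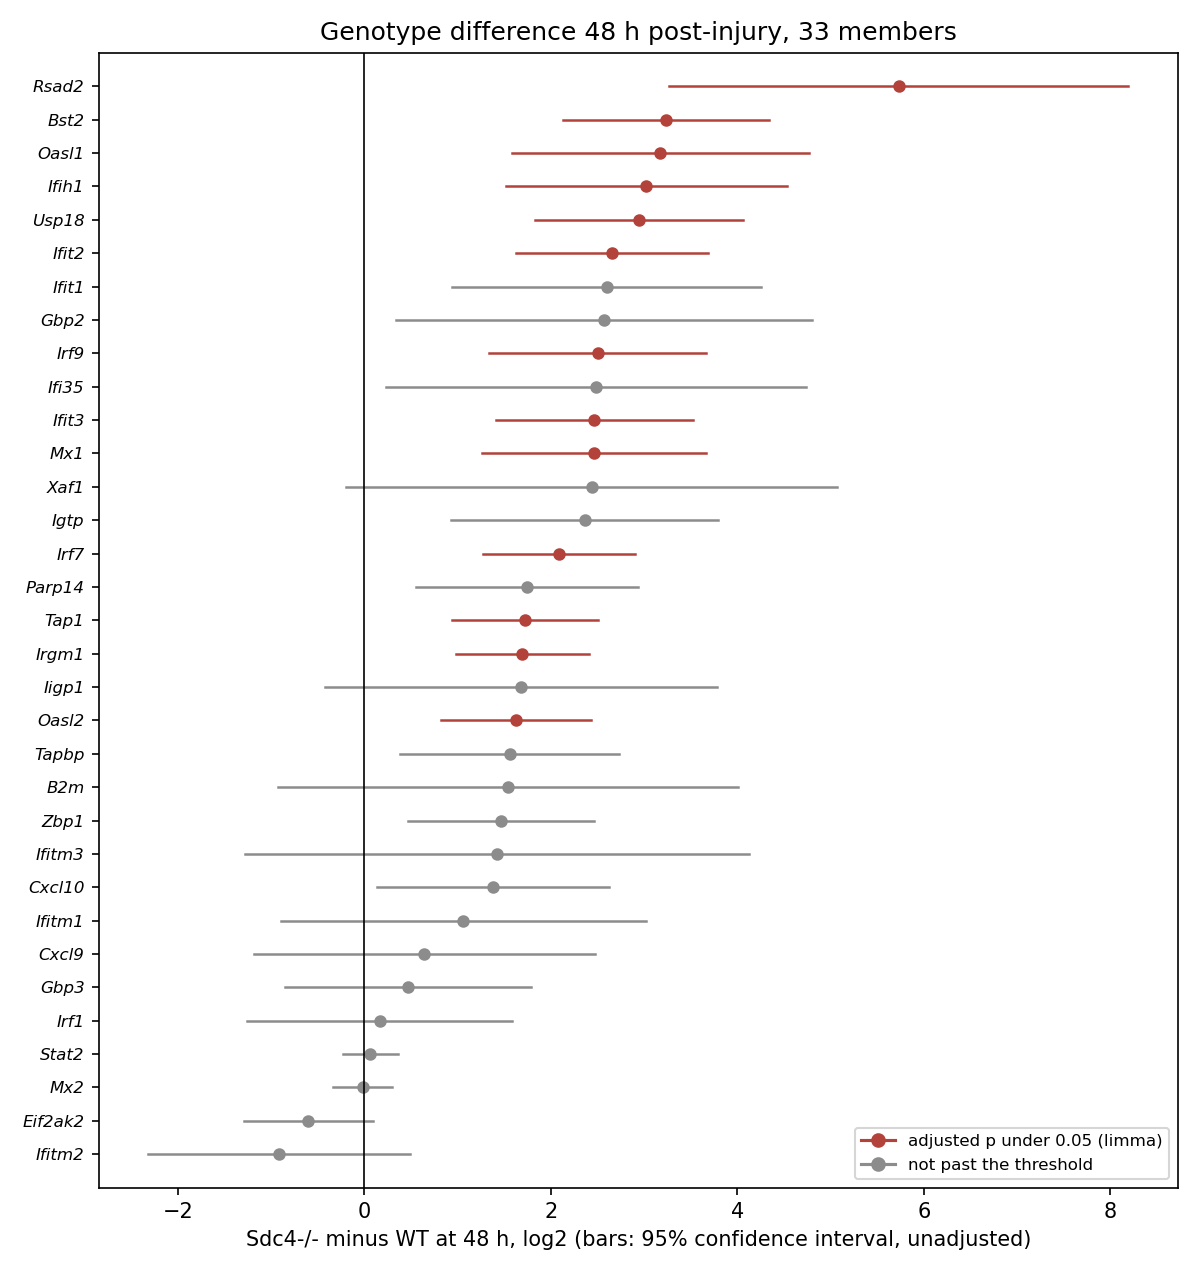
Difference between Sdc4-/- and WT cells at 48 h for the 33 measured members, in log2 units with unadjusted 95% confidence intervals from the limma fit; red marks the 13 members with an adjusted p under 0.05. 30 of the 33 points lie right of 0, and Rsad2 has the largest difference (5.73).

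At 12 h, 11 of 33 members were called higher in Sdc4-/- cells and 0 lower, where 8.68% of all genes were called higher, 10.4% lower, and 24.1% of those averaging 4 or more higher. The median difference over the 33 members was 1.59, against -0.08 over all genes and 0.72 over those averaging 4 or more. The 11 called members were Parp14, Ifitm1, Ifit1, Ifitm2, Ifi35, Irf1, Tapbp, Ifih1, Rsad2, Oasl1 and B2m, of which Ifih1, Rsad2 and Oasl1 were called at 48 h too. At this time the macrophage list ran with the genotype, at 6.83 to 7.77 in Sdc4-/- cells and 3.62 to 4.23 in WT cells, and 8 of its 14 markers were called higher in Sdc4-/- cells. Its part in the 12 h difference was not tested. Without Sdc4-/- 12 h replicate 1 the test called 7 members, with the hybridization controls as a covariate 2, with only the compared groups fitted 3, and after further quantile normalisation 5 higher and 1 lower. Of all genes 1.85% were called higher with the covariate, 3.17% with only the compared groups and 6.41% after quantile normalisation. In uninjured muscle 1 of 33 members was called higher in Sdc4-/- cells (Oasl1; 1.32% of all genes) and 1 lower (Irgm1; 2.96% of all genes), and the median difference was 0.19. There 2 of 14 macrophage markers were called higher by limma (10 at an unadjusted p under 0.05), with a median difference of 2.87. That list averaged 7.97 to 8.70 on the Sdc4-/- arrays and 4.75 and 7.35 on the WT arrays used, and its part was not tested.

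Within genotypes, the comparisons ask how the members changed after injury. At 12 h, 18 of 33 were called lower and 1 higher than at 0 h in WT cells, where 20.8% of all genes were called lower and 19.6% higher, and 44.6% of those averaging 4 or more lower. The median difference was -2.85, against 0.09 over all genes and -1.56 over those averaging 4 or more. The count of 19 became 1 with the hybridization controls as a covariate and 10 after further quantile normalisation. Over all 18194 genes 7357 calls became 233 and 4866 in the same fits. The WT 12 h arrays correlated with each other at 0.66 to 0.75 over all probe sets, against 0.88 or more within every other group, and the 3' Actb control probe set read 11.81, 3.98 and 8.37 on them. At 48 h, 9 were called lower and 1 higher in WT cells (9.39% of all genes lower, 5.47% higher, 14.2% of those averaging 4 or more lower). The median there was -1.26, against 0.10 over all genes and -0.24 over those averaging 4 or more. Markers of other cell types were called lower in WT cells as well. At 12 h and 48 h these were 7 and 8 of 12 endothelial markers, 5 and 6 of 9 fibroblast markers and 6 at each time of 10 smooth muscle and pericyte markers. The endothelial list averaged 3.39 to 4.41 on the injured WT arrays and 6.09 and 7.64 at 0 h, the fibroblast list 3.14 to 4.33 and 7.07 and 7.95 at 0 h, and the smooth muscle and pericyte list 3.81 to 4.73 and 6.75 and 7.81 at 0 h. In Sdc4-/- cells 2 endothelial, 0 fibroblast and 2 smooth muscle and pericyte markers were called lower at 12 h, and 1, 2 and 2 at 48 h. Their part in the members' differences was not tested. In Sdc4-/- cells 3 were called lower and 0 higher at 12 h (7.23% of all genes lower, 1.48% higher, 14.8% of those averaging 4 or more lower; median -0.80), a share near that of all genes, and 4 higher and 0 lower at 48 h (2.65% of all genes higher, 2.59% lower; median 0.34). The medians over all genes were 0.04 at 12 h and 0.02 at 48 h, and over those averaging 4 or more -0.63 and 0.22. From 12 h to 48 h, 8 were called higher and 1 lower in Sdc4-/- cells (7.61% of all genes higher, 0.819% lower) and 6 higher and 0 lower in WT cells (9.27% of all genes higher, 5.9% lower). Of the 28 members averaging 4 or more, 5 were called higher in Sdc4-/- cells, where 17.8% of all such genes were, and 6 in WT cells, where 26.3% were. Of the 14 macrophage markers 6 were called higher in Sdc4-/- cells and 12 in WT cells, and their part was not tested. The counts for WT cells against 0 h rest on 2 uninjured arrays, and at 48 h the total was 2 without replicate 1 of them. In Sdc4-/- cells 1 was called at 12 h against 0 h without 0 h replicate 1, and 4 at 48 h against 12 h without 48 h replicate 3.

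**Figure D2:**
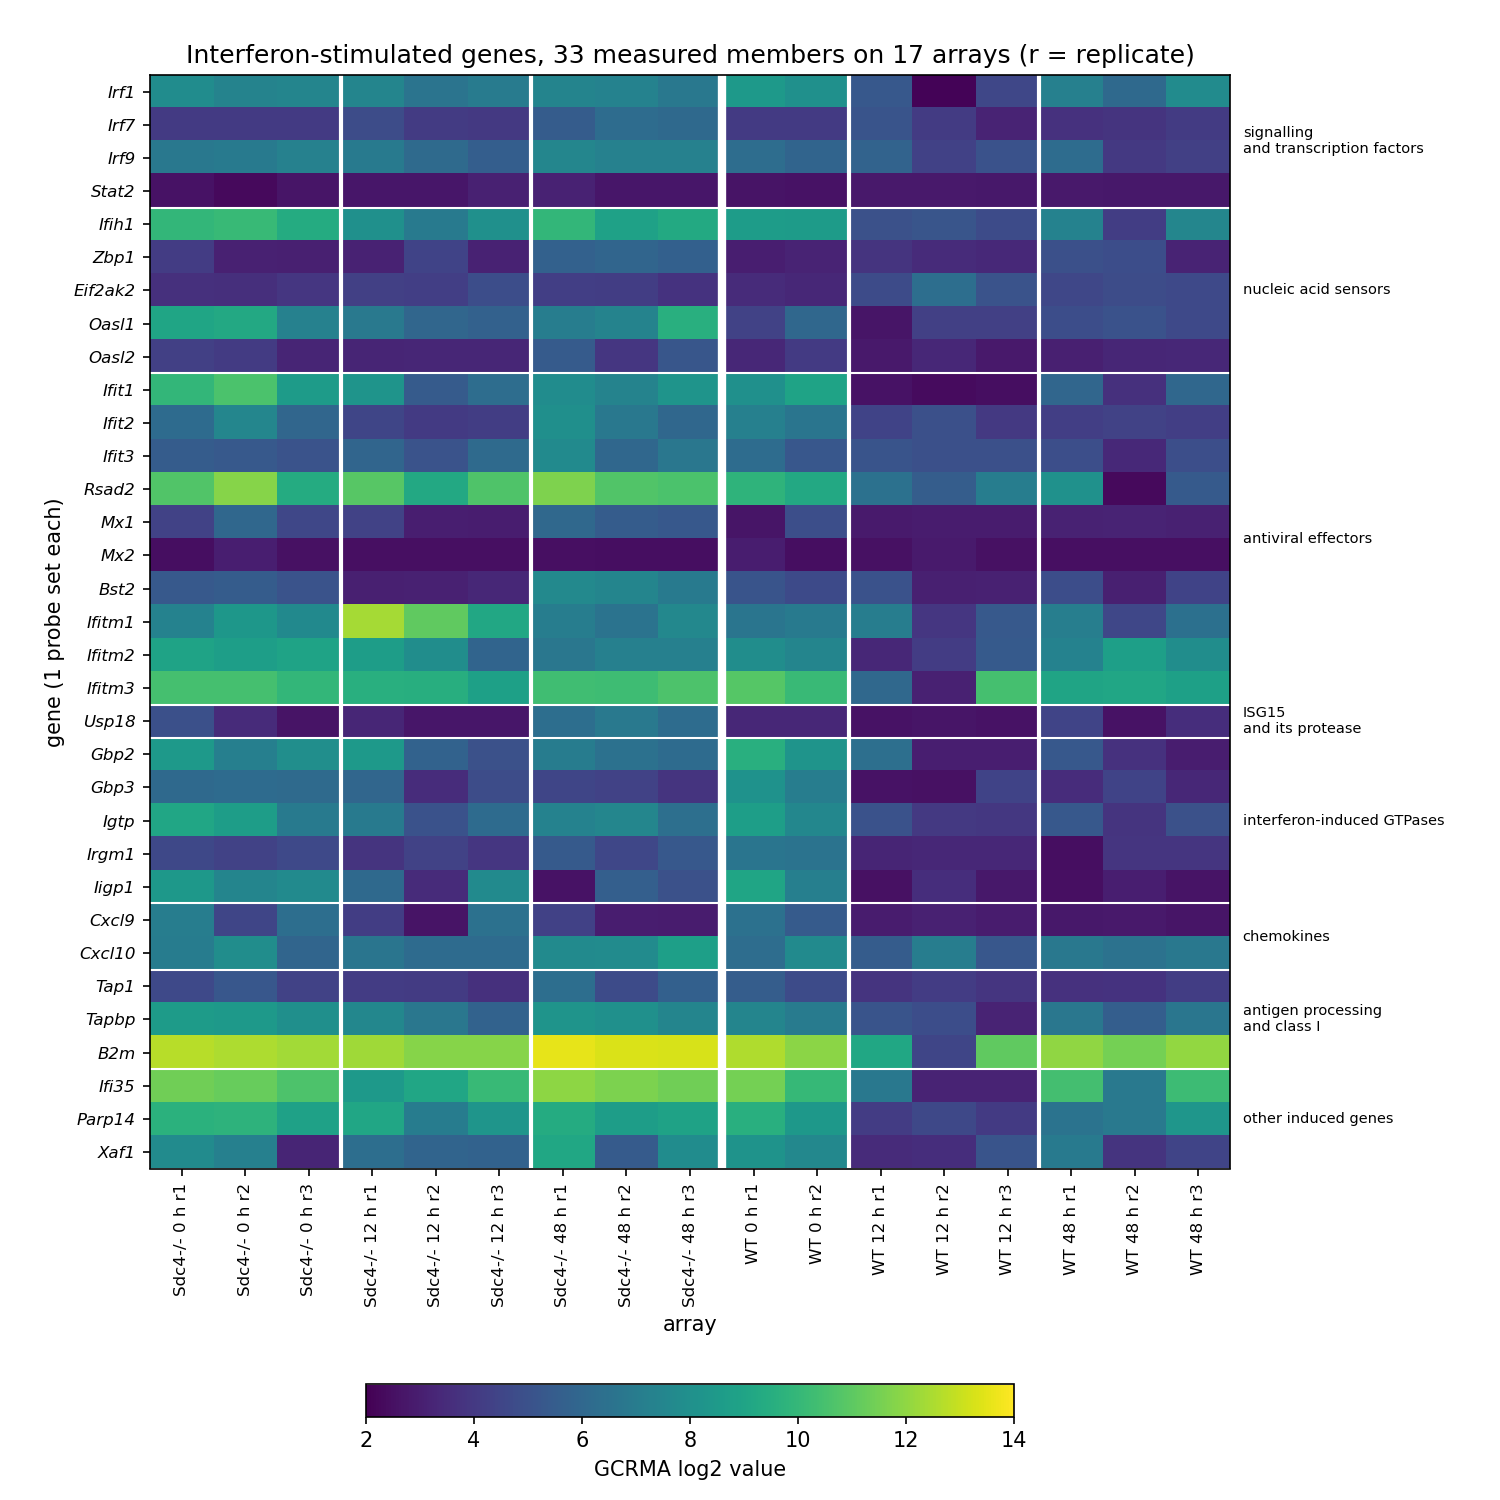
GCRMA log2 values of the 33 measured members (rows, grouped by role) on the 17 arrays used (columns, Sdc4-/- arrays left and WT arrays right, r1 to r3 the replicates). The median over the members is 4.43, 3.57 and 3.94 on the 3 WT 12 h arrays, and B2m is bright on every array except WT 12 h replicate 2 (4.50).

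**Figure D3:**
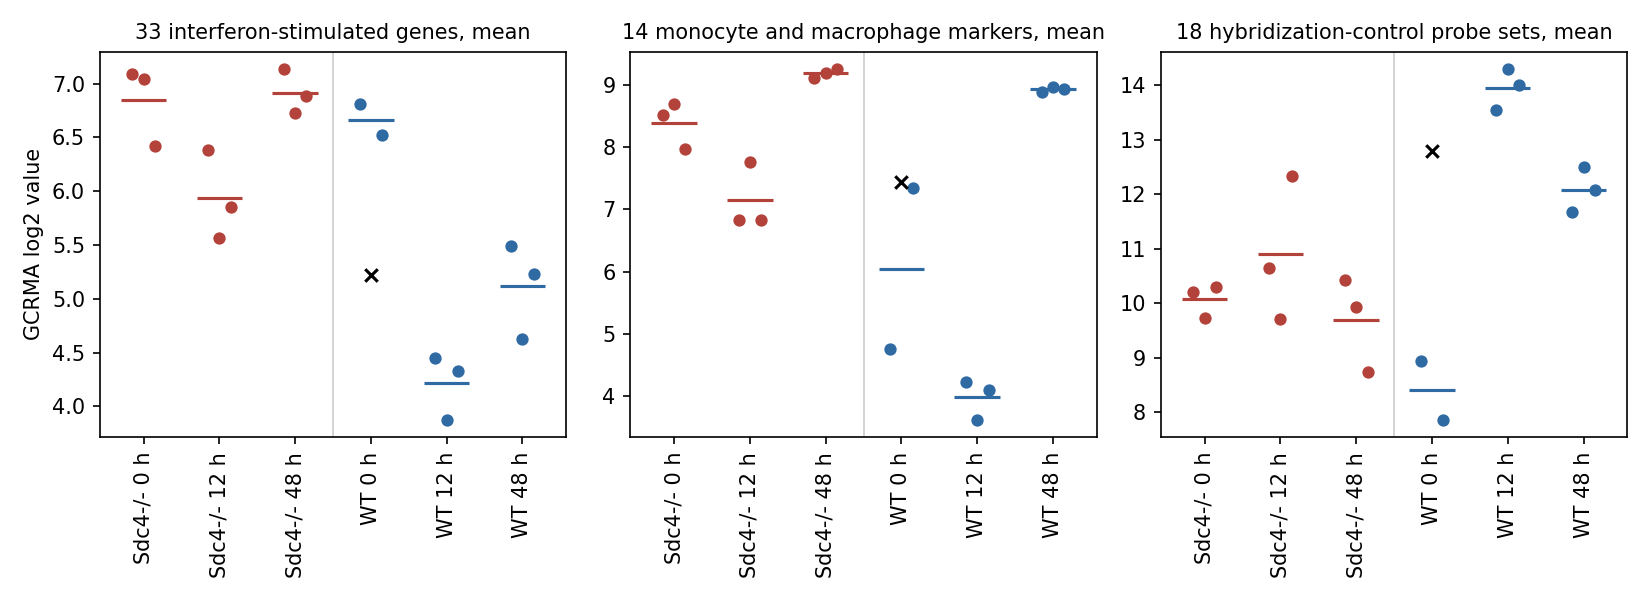
Mean log2 value on each array (points; lines are group means) of the 33 members, of 14 monocyte and macrophage markers and of 18 hybridization-control probe sets, with Sdc4-/- groups left of WT groups; the cross is the WT 0 h array left out. At 48 h the members' mean lay at 6.73 to 7.14 in Sdc4-/- cells and 4.62 to 5.49 in WT cells. The macrophage markers lay at 9.12 to 9.26 in Sdc4-/- cells and 8.89 to 8.96 in WT cells, and their part was not tested.

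The change from 0 h to 48 h itself differed between genotypes for 3 of 33 members, all more positive in Sdc4-/- cells (Irgm1, Ifit2 and Ifit3; 3.64% of all genes were called in this direction and 1.03% in the other), and the median difference of changes was 1.62. For the 12 h change the 3 called members were Irgm1, Parp14 and Irf1 (6.32% of all genes, with 5.7% in the other direction), with a median of 1.42. Of genes averaging 4 or more, 808 of 6279 were called in this direction for the 12 h change (median 0.80), against 3 of 28 such members. For the 48 h change 310 of 6279 were (median 0.52), against 3 of 28 such members. Without WT 0 h replicate 1 the test called 1 member for each change. With the hybridization controls as a covariate 1 member was called for the 12 h change, none of the 3 named, and 0 for the 48 h change. There 0.923% and 0.671% of all genes were called in this direction. With the left-out WT array included, 0 of 33 differences were called for either change (limma; at an unadjusted p under 0.05, 10 were more positive for the 48 h change and 4 for the 12 h change).

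**Figure D4:**
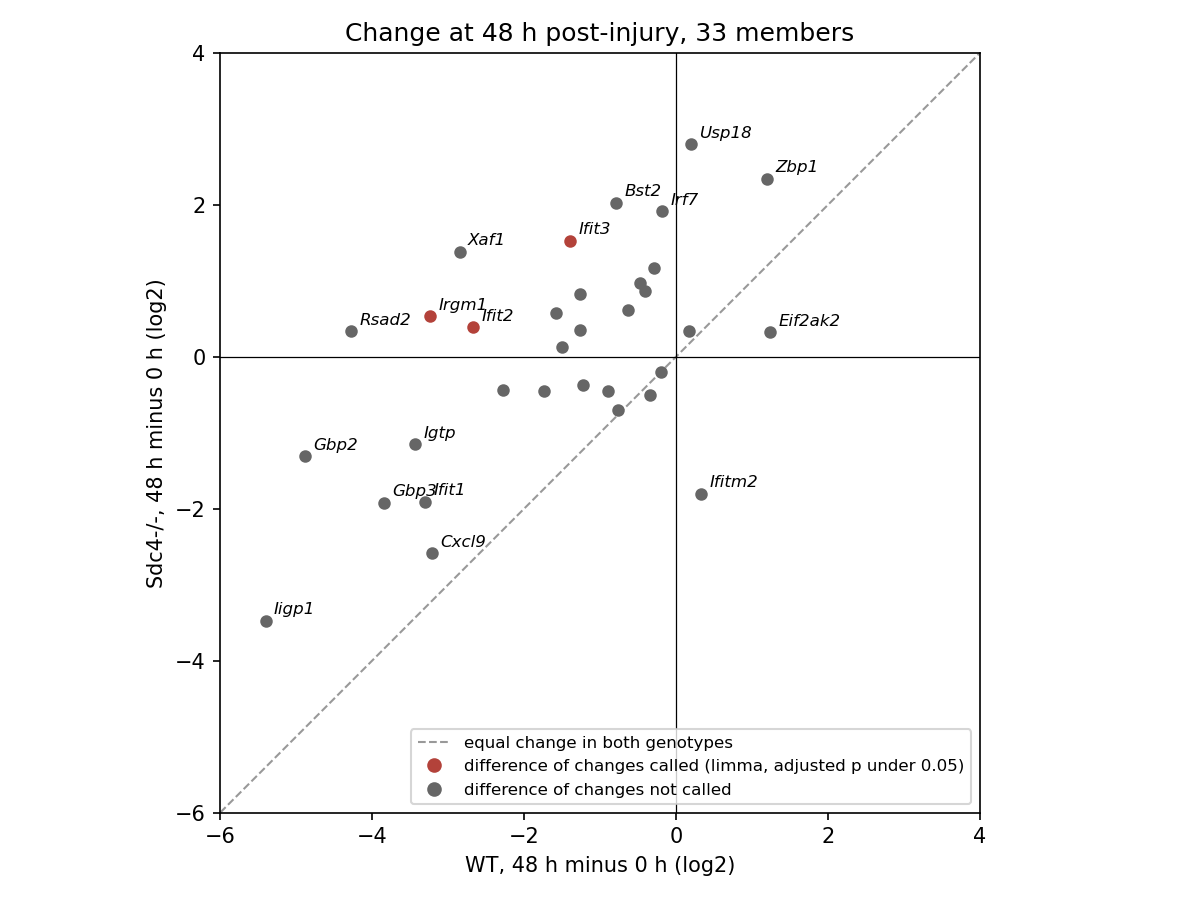
Change from 0 h to 48 h on the log2 scale in Sdc4-/- cells (vertical) and WT cells (horizontal) for the 33 members; the dashed line marks equal change and red the 3 members whose difference of changes was called. 30 members lie above the dashed line.

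Among the transcription factors, Irf7, which amplifies the type I interferon response, passed the test at 48 h. Irf7 measured 4.03, 4.02 and 4.03 at 0 h, 4.78, 4.08 and 4.01 at 12 h and 5.50, 6.22 and 6.12 at 48 h in Sdc4-/- cells. WT cells gave Irf7 values of 4.02 and 4.06 at 0 h, 5.10, 4.11 and 3.20 at 12 h and 3.69, 3.79 and 4.08 at 48 h. Only the 3 Sdc4-/- arrays at 48 h exceeded 5.2, and they did not overlap any other group. Irf7 was higher in Sdc4-/- than in WT cells at 48 h by 2.09 ± 0.38 (SE, adjusted p = 0.00808), and rose within Sdc4-/- cells by 1.92 ± 0.38 (SE, adjusted p = 0.011) at 48 h against 0 h, with a WT difference of -0.19 ± 0.42 (SE, adjusted p = 0.809). Irf9, a DNA-binding subunit of ISGF3, measured 6.78, 6.90 and 7.25 at 0 h, 6.92, 6.17 and 5.60 at 12 h and 7.49, 7.27 and 7.26 at 48 h in Sdc4-/- cells. WT cells gave Irf9 values of 6.31 and 5.89 at 0 h, 5.82, 4.34 and 5.04 at 12 h and 6.24, 3.98 and 4.28 at 48 h. The Sdc4-/- arrays at 48 h all lay above the WT arrays at 48 h, by 2.50 ± 0.53 (SE, adjusted p = 0.0195). Irf1, a transcription factor induced early by interferon, measured 7.82, 7.39 and 7.48 at 0 h, 7.44, 6.60 and 6.997 at 12 h and 7.42, 7.33 and 6.82 at 48 h in Sdc4-/- cells. WT cells gave Irf1 values of 8.49 and 8.02 at 0 h, 5.30, 2.12 and 4.55 at 12 h and 7.21, 6.10 and 7.78 at 48 h. All 3 WT 12 h arrays lay below every other array of Irf1. It fell by 4.27 ± 0.73 (SE, adjusted p = 0.00086) at 12 h against 0 h in WT cells, the corresponding difference in Sdc4-/- cells was -0.55 ± 0.65 (SE, adjusted p = 0.682), and the changes differed by 3.72 ± 0.98 (SE, adjusted p = 0.0299). At 48 h Irf1 differed between the genotypes by 0.17 ± 0.65 (SE, adjusted p = 0.922), which did not pass. Stat2 lay near the floor throughout, between 2.32 and 3.17, and was called in 0 of the 11 comparisons.

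Of the nucleic acid sensors, Ifih1 encodes MDA5, a helicase that recognises long double-stranded RNA. Ifih1 measured 9.94, 10.10 and 9.39 at 0 h, 8.01, 6.95 and 8.01 at 12 h and 9.95, 8.85 and 9.30 at 48 h in Sdc4-/- cells. WT cells gave Ifih1 values of 8.64 and 8.61 at 0 h, 4.96, 5.14 and 4.73 at 12 h and 7.34, 4.18 and 7.51 at 48 h. The Sdc4-/- arrays lay above the WT arrays at every time, and WT 48 h replicate 2 (4.18) lay far below the other 2 arrays of its group. Ifih1 was higher in Sdc4-/- cells by 2.71 ± 0.69 (SE, adjusted p = 0.018) at 12 h and 3.02 ± 0.69 (SE, adjusted p = 0.0272) at 48 h, and fell by 3.68 ± 0.77 (SE, adjusted p = 0.0032) at 12 h against 0 h in WT cells. Oasl1, an oligoadenylate synthetase-like protein that in mice restrains translation of Irf7, measured 9.06, 9.23 and 7.27 at 0 h, 6.87, 5.95 and 5.74 at 12 h and 7.09, 7.38 and 9.56 at 48 h in Sdc4-/- cells. WT cells gave Oasl1 values of 4.36 and 5.99 at 0 h, 2.68, 4.29 and 4.28 at 12 h and 4.86, 5.01 and 4.63 at 48 h. No Sdc4-/- array overlapped the WT arrays of its time. Oasl1 was the member called higher in Sdc4-/- cells at all 3 times, by 3.35 ± 0.82 (SE, adjusted p = 0.043) at 0 h, 2.44 ± 0.73 (SE, adjusted p = 0.0388) at 12 h and 3.18 ± 0.73 (SE, adjusted p = 0.0281) at 48 h. The 0 h call was lost with the left-out WT array included (adjusted p = 0.0681, limma) and kept in 5 of 17 fits without 1 array. Zbp1, a sensor of Z-form nucleic acid that can trigger necroptosis, measured 4.12, 3.10 and 3.07 at 0 h, 3.16, 4.44 and 3.16 at 12 h and 5.72, 5.92 and 5.68 at 48 h in Sdc4-/- cells. WT cells gave Zbp1 values of 3.01 and 3.22 at 0 h, 3.81, 3.47 and 3.36 at 12 h and 4.91, 4.82 and 3.20 at 48 h. The 3 Sdc4-/- arrays at 48 h were the highest. Zbp1 rose within Sdc4-/- cells by 2.35 ± 0.46 (SE, adjusted p = 0.0111) at 48 h against 0 h, while the difference from WT cells at 48 h did not pass (1.47 ± 0.46, SE, adjusted p = 0.0924). Oasl2 was higher in Sdc4-/- cells at 48 h by 1.63 ± 0.37 (SE, adjusted p = 0.0259), at a level of 3.88 to 5.44 in Sdc4-/- cells and 3.07 to 3.32 in WT cells. Eif2ak2, the kinase PKR that halts translation on double-stranded RNA, ran the other way, and was the member called higher after injury in WT cells, by 1.98 ± 0.36 (SE, adjusted p = 0.00118) at 12 h and 1.24 ± 0.36 (SE, adjusted p = 0.0395) at 48 h. It read 4.75 to 6.32 at 12 h and 4.54 to 4.77 at 48 h in WT cells, against 3.35 and 3.46 at 0 h on the 2 arrays used, while the left-out 0 h array read 5.89. The 48 h call was kept in 7 of 17 fits without 1 array, and both calls were lost with all 18 arrays.

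The antiviral effectors Rsad2 and Bst2 gave the largest differences of the 33 members between Sdc4-/- and WT cells at 48 h. Rsad2, the radical-SAM enzyme viperin, measured 10.74, 11.82 and 9.39 at 0 h, 10.90, 9.22 and 10.68 at 12 h and 11.66, 10.73 and 10.59 at 48 h in Sdc4-/- cells. WT cells gave Rsad2 values of 9.82 and 9.25 at 0 h, 6.46, 5.53 and 7.10 at 12 h and 8.08, 2.30 and 5.40 at 48 h. It stayed above 9.2 on every Sdc4-/- array, whereas the 6 injured WT arrays lay at 8.08 or below and WT 48 h replicate 2 was at 2.30. Rsad2 was higher in Sdc4-/- cells by 3.90 ± 1.13 (SE, adjusted p = 0.0329) at 12 h and 5.73 ± 1.13 (SE, adjusted p = 0.0133) at 48 h. The 12 h call was lost with the mean of its 3 probe sets and kept in 13 of 17 fits without 1 array. The 48 h difference was 4.25 (adjusted p = 0.0254, limma) without WT 48 h replicate 2. Bst2, or tetherin, which holds budding virions at the cell surface, measured 5.36, 5.51 and 5.08 at 0 h, 3.05, 3.12 and 3.33 at 12 h and 7.65, 7.46 and 6.94 at 48 h in Sdc4-/- cells. WT cells gave Bst2 values of 5.11 and 4.71 at 0 h, 5.01, 3.08 and 3.09 at 12 h and 4.85, 3.07 and 4.43 at 48 h. Its 3 Sdc4-/- groups did not overlap each other, with 12 h lowest and 48 h highest. Within Sdc4-/- cells Bst2 fell by 2.15 ± 0.51 (SE, adjusted p = 0.0244) at 12 h against 0 h and was higher at 48 h than at 12 h by 4.18 ± 0.51 (SE, adjusted p = 0.000677). At 48 h it exceeded WT cells by 3.23 ± 0.51 (SE, adjusted p = 0.00384), the smallest adjusted p of any member in that comparison.

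The IFIT family binds viral RNA that lacks the host cap modification. Ifit1 measured 9.93, 10.60 and 8.60 at 0 h, 8.22, 5.45 and 6.27 at 12 h and 7.83, 7.35 and 8.23 at 48 h in Sdc4-/- cells. WT cells gave Ifit1 values of 8.04 and 8.98 at 0 h, 2.60, 2.34 and 2.44 at 12 h and 5.94, 3.65 and 6.02 at 48 h. The WT 12 h arrays were at the floor of the scale and the Sdc4-/- 12 h arrays were not. Ifit1 fell at 12 h against 0 h in both genotypes, by 3.06 ± 0.76 (SE, adjusted p = 0.0315) in Sdc4-/- cells and 6.05 ± 0.85 (SE, adjusted p = 0.000235) in WT cells. At 12 h it was higher in Sdc4-/- cells by 4.19 ± 0.76 (SE, adjusted p = 0.00254). Both sizes that involve the WT 12 h arrays are limited by the floor. Ifit2 measured 6.19, 7.53 and 5.94 at 0 h, 4.49, 4.06 and 4.16 at 12 h and 7.98, 6.81 and 6.03 at 48 h in Sdc4-/- cells. WT cells gave Ifit2 values of 7.22 and 6.68 at 0 h, 4.43, 4.92 and 4.01 at 12 h and 4.24, 4.35 and 4.24 at 48 h. Both genotypes were low at 12 h, and at 48 h only the Sdc4-/- arrays were back within their 0 h range or above it. Ifit2 fell at 12 h against 0 h by 2.32 ± 0.47 (SE, adjusted p = 0.011) in Sdc4-/- cells and 2.50 ± 0.53 (SE, adjusted p = 0.00333) in WT cells, and the 48 h changes differed by 3.06 ± 0.71 (SE, adjusted p = 0.033). At 48 h it was higher in Sdc4-/- cells by 2.66 ± 0.47 (SE, adjusted p = 0.00758). Ifit3 measured 5.50, 5.36 and 5.06 at 0 h, 5.93, 5.06 and 6.14 at 12 h and 7.75, 6.01 and 6.74 at 48 h in Sdc4-/- cells. WT cells gave Ifit3 values of 6.24 and 5.27 at 0 h, 5.10, 4.94 and 4.92 at 12 h and 4.87, 3.36 and 4.87 at 48 h. The Sdc4-/- arrays at 48 h lay above all WT arrays of that time. Ifit3 was higher in Sdc4-/- cells at 48 h by 2.47 ± 0.49 (SE, adjusted p = 0.0132) and its 48 h changes differed by 2.92 ± 0.73 (SE, adjusted p = 0.0454).

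The IFITM proteins hinder fusion of viral with cellular membranes. Ifitm1 measured 7.33, 8.36 and 7.70 at 0 h, 12.39, 11.05 and 9.18 at 12 h and 7.09, 6.59 and 7.59 at 48 h in Sdc4-/- cells. WT cells gave Ifitm1 values of 6.67 and 6.91 at 0 h, 7.09, 3.91 and 5.35 at 12 h and 7.11, 4.55 and 6.42 at 48 h. The 3 Sdc4-/- arrays at 12 h were the highest of all 17. Ifitm1 was higher in Sdc4-/- than in WT cells at 12 h by 5.43 ± 0.90 (SE, adjusted p = 0.00148), and fell by 3.78 ± 0.90 (SE, adjusted p = 0.027) at 48 h against 12 h within Sdc4-/- cells. Ifitm2 measured 8.94, 8.72 and 8.94 at 0 h, 8.69, 7.87 and 5.89 at 12 h and 6.77, 7.22 and 7.21 at 48 h in Sdc4-/- cells. WT cells gave Ifitm2 values of 7.87 and 7.44 at 0 h, 3.35, 4.14 and 5.39 at 12 h and 7.32, 8.76 and 7.86 at 48 h. At 48 h the WT arrays lay above the Sdc4-/- arrays, without passing the test (-0.91 ± 0.65, SE, adjusted p = 0.479). Ifitm2 was higher in Sdc4-/- cells at 12 h by 3.19 ± 0.65 (SE, adjusted p = 0.00484), and in WT cells it was higher at 48 h than at 12 h by 3.69 ± 0.65 (SE, adjusted p = 0.0027). Ifitm3 measured 10.45, 10.45 and 9.93 at 0 h, 9.57, 9.54 and 8.84 at 12 h and 10.31, 10.26 and 10.63 at 48 h in Sdc4-/- cells. WT cells gave Ifitm3 values of 10.84 and 10.11 at 0 h, 6.06, 3.11 and 10.47 at 12 h and 9.004, 9.08 and 8.84 at 48 h. WT 12 h replicate 3 lay among the uninjured arrays while replicates 1 and 2 lay far below, so the groups overlapped, and the 12 h call in WT cells (-3.93 ± 1.39, SE, adjusted p = 0.0426) was lost when any of 16 of the 17 arrays was left out. Of the Mx GTPases, which RefSeq annotates as transcribed pseudogenes in the C57BL/6J reference, Mx1 was higher in Sdc4-/- cells at 48 h by 2.46 ± 0.55 (SE, adjusted p = 0.025), at 5.32 to 6.04 in Sdc4-/- cells and 3.11 to 3.17 in WT cells, and Mx2 stayed between 2.45 and 2.99 and was called in 0 comparisons.

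**Figure D5:**
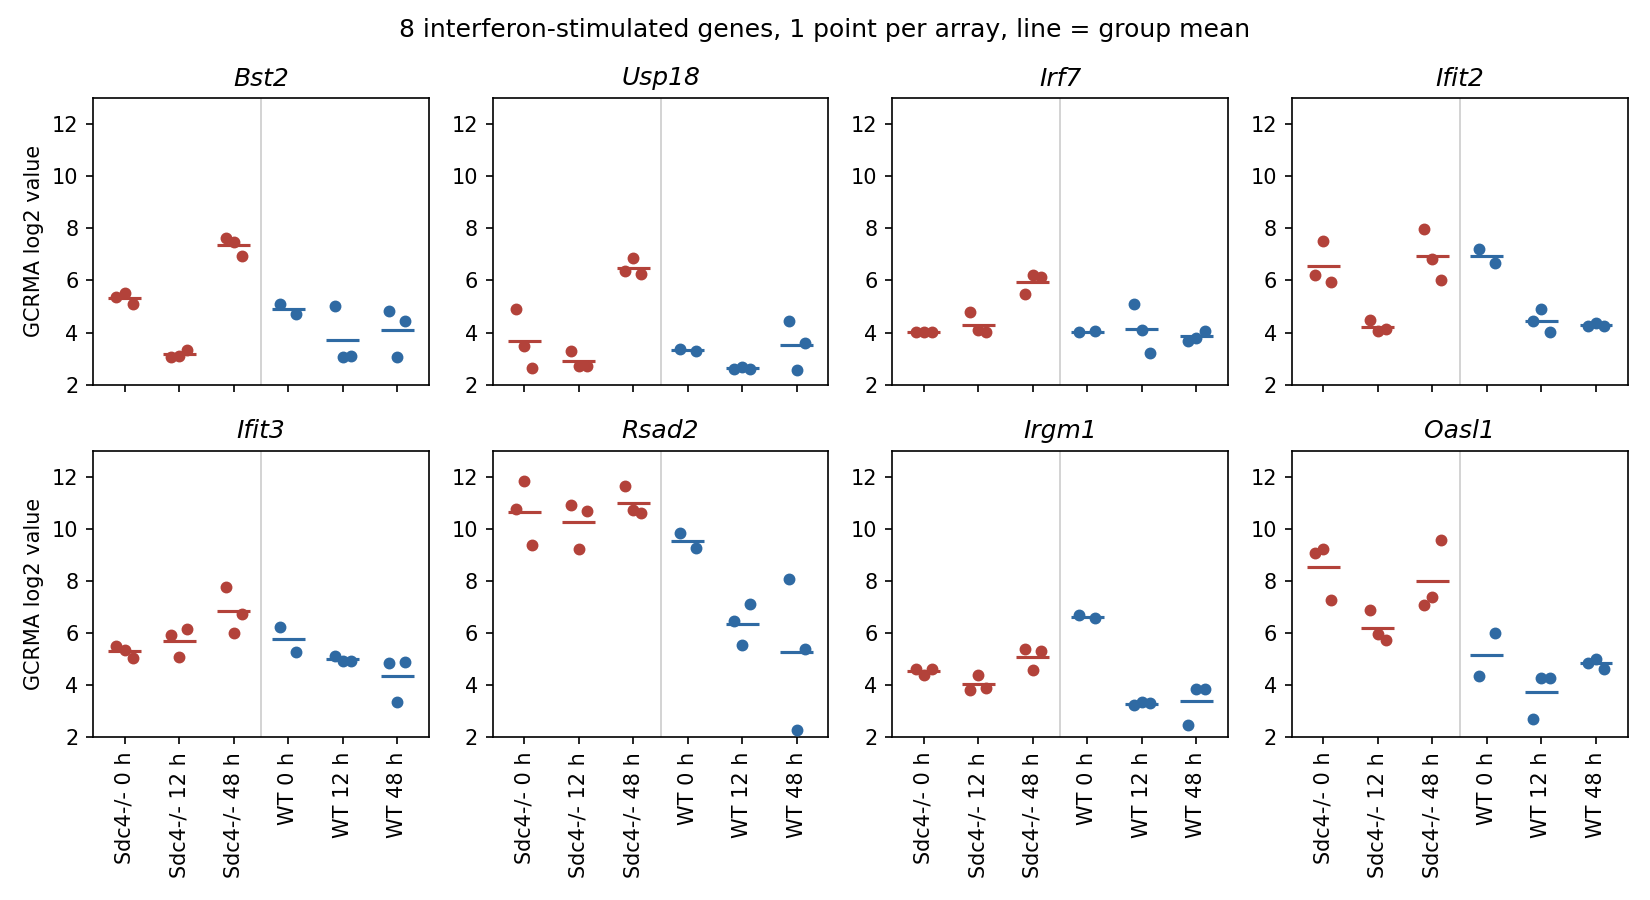
GCRMA log2 values of Bst2, Usp18, Irf7, Ifit2, Ifit3, Rsad2, Irgm1 and Oasl1, with 1 point per array, lines at the group means, Sdc4-/- groups (red) left of WT groups (blue). At 48 h every Sdc4-/- array lies above every WT array for each of these 8 genes, all called higher there.

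Usp18, the protease that removes ISG15 from its targets and dampens signalling at the type I receptor, measured 4.91, 3.50 and 2.64 at 0 h, 3.28, 2.72 and 2.74 at 12 h and 6.35, 6.85 and 6.23 at 48 h in Sdc4-/- cells. WT cells gave Usp18 values of 3.36 and 3.31 at 0 h, 2.59, 2.69 and 2.60 at 12 h and 4.44, 2.57 and 3.59 at 48 h. The 3 Sdc4-/- arrays at 48 h stood above the other 14 arrays, which included near-floor values in every other group. Usp18 was higher in Sdc4-/- than in WT cells at 48 h by 2.95 ± 0.51 (SE, adjusted p = 0.0069), and higher at 48 h than at 0 h within Sdc4-/- cells by 2.80 ± 0.51 (SE, adjusted p = 0.00771). In WT cells the same change was 0.20 ± 0.58 (SE, adjusted p = 0.852), and the difference of changes did not pass (2.60 ± 0.77, SE, adjusted p = 0.0864).

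The 5 interferon-induced GTPases, which act on vacuoles that hold intracellular pathogens, were all called lower than at 0 h in WT cells, both at 12 h, where 44.6% of genes averaging 4 or more were called lower, and at 48 h, where 14.2% were. The endothelial, fibroblast and pericyte markers were called lower in those comparisons too, as given above. In Sdc4-/- cells 0 of 5 were called at either time (limma; 2 lower at an unadjusted p under 0.05 at each). Irgm1, a regulator of the other immunity-related GTPases, measured 4.62, 4.39 and 4.64 at 0 h, 3.80, 4.38 and 3.90 at 12 h and 5.38, 4.57 and 5.30 at 48 h in Sdc4-/- cells. WT cells gave Irgm1 values of 6.67 and 6.58 at 0 h, 3.22, 3.34 and 3.32 at 12 h and 2.46, 3.85 and 3.84 at 48 h. The Sdc4-/- arrays stayed between 3.80 and 5.38, while the 2 uninjured WT arrays were the highest of all and the injured WT arrays lay at 3.85 or below. Irgm1 fell in WT cells by 3.33 ± 0.37 (SE, adjusted p = 4.64e-05) at 12 h and 3.24 ± 0.37 (SE, adjusted p = 0.00017) at 48 h, differed between Sdc4-/- and WT cells by -2.08 ± 0.37 (SE, adjusted p = 0.00656) at 0 h, and was higher in Sdc4-/- cells at 48 h by 1.70 ± 0.33 (SE, adjusted p = 0.0116). The changes differed by 2.81 ± 0.49 (SE, adjusted p = 0.00426) at 12 h and 3.78 ± 0.49 (SE, adjusted p = 0.00127) at 48 h. The WT 0 h array that was left out read 4.18, inside the Sdc4-/- range, and with it included the 0 h difference was -1.26 (adjusted p = 0.424) and the differences of changes 2.00 (adjusted p = 0.24) and 2.96 (adjusted p = 0.159). With that array the call of Irgm1 at 48 h in WT cells and its genotype call at 48 h were lost too. Its call at 12 h in WT cells was kept.

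Igtp measured 9.09, 8.69 and 6.91 at 0 h, 6.94, 5.04 and 6.19 at 12 h and 7.34, 7.50 and 6.38 at 48 h in Sdc4-/- cells. WT cells gave Igtp values of 8.72 and 7.56 at 0 h, 5.01, 4.01 and 3.94 at 12 h and 5.32, 3.82 and 4.99 at 48 h. Every injured WT array lay below the uninjured WT arrays, and Igtp fell there by 3.82 ± 0.74 (SE, adjusted p = 0.00186) at 12 h and 3.43 ± 0.74 (SE, adjusted p = 0.00996) at 48 h. Gbp2, a guanylate-binding protein, measured 8.49, 7.19 and 7.93 at 0 h, 8.46, 5.78 and 4.96 at 12 h and 7.03, 6.47 and 6.19 at 48 h in Sdc4-/- cells. WT cells gave Gbp2 values of 9.55 and 8.19 at 0 h, 6.36, 3.02 and 3.004 at 12 h and 5.32, 3.69 and 2.95 at 48 h. It fell in WT cells by 4.74 ± 1.15 (SE, adjusted p = 0.00716) at 12 h and 4.88 ± 1.15 (SE, adjusted p = 0.0158) at 48 h, with no overlap with 0 h. Gbp3 measured 6.11, 6.19 and 6.13 at 0 h, 5.96, 3.53 and 4.81 at 12 h and 4.49, 4.36 and 3.82 at 48 h in Sdc4-/- cells. WT cells gave Gbp3 values of 8.11 and 7.08 at 0 h, 2.56, 2.55 and 4.43 at 12 h and 3.51, 4.41 and 3.35 at 48 h. It was highest on the uninjured WT arrays, and fell in WT cells by 4.42 ± 0.68 (SE, adjusted p = 0.000426) at 12 h and 3.84 ± 0.68 (SE, adjusted p = 0.00335) at 48 h. Iigp1 measured 8.40, 7.47 and 7.75 at 0 h, 6.08, 3.50 and 7.73 at 12 h and 2.60, 5.61 and 4.98 at 48 h in Sdc4-/- cells. WT cells gave Iigp1 values of 9.05 and 7.19 at 0 h, 2.53, 3.56 and 2.76 at 12 h and 2.48, 3.02 and 2.65 at 48 h. The injured WT arrays were all at 3.56 or below, while Sdc4-/- arrays at 12 h ranged over 3.50 to 7.73. Iigp1 fell in WT cells by 5.17 ± 1.08 (SE, adjusted p = 0.00309) at 12 h and 5.40 ± 1.08 (SE, adjusted p = 0.00679) at 48 h. For these 4 the difference between the genotypes' changes did not pass, with adjusted p of 0.0516 to 0.303 at 12 h and 0.244 to 0.505 at 48 h. With all 18 arrays the WT calls of Gbp2, Gbp3 and Iigp1 at 48 h and of Iigp1 at 12 h were lost. Igtp kept its WT calls at both times there, and Gbp2 and Gbp3 theirs at 12 h.

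The 2 chemokines, both ligands of CXCR3 that draw activated T cells, were called in few comparisons. Cxcl10 measured 7.04, 7.88 and 5.93 at 0 h, 6.67, 6.19 and 6.18 at 12 h and 7.76, 7.79 and 8.79 at 48 h in Sdc4-/- cells. WT cells gave Cxcl10 values of 6.29 and 7.75 at 0 h, 5.49, 7.11 and 5.25 at 12 h and 6.82, 6.53 and 6.83 at 48 h. The Sdc4-/- arrays at 48 h lay above the WT arrays at 48 h, but the difference did not pass (1.38 ± 0.57, SE, adjusted p = 0.205), and Cxcl10 was called in 0 of the 11 comparisons. Cxcl9 measured 7.10, 4.51 and 6.32 at 0 h, 4.20, 2.64 and 6.47 at 12 h and 4.34, 2.95 and 2.91 at 48 h in Sdc4-/- cells. WT cells gave Cxcl9 values of 6.50 and 5.43 at 0 h, 2.94, 3.12 and 2.93 at 12 h and 2.80, 2.80 and 2.66 at 48 h. All 6 injured WT arrays were near the floor. Cxcl9 fell in WT cells by 2.97 ± 0.94 (SE, adjusted p = 0.0267) at 12 h and 3.21 ± 0.94 (SE, adjusted p = 0.0437) at 48 h. The 12 h call was kept in 13 and the 48 h call in 6 of 17 fits without 1 array, and both were lost with all 18 arrays. The change in Sdc4-/- cells at 48 h was -2.58 ± 0.84 (SE, adjusted p = 0.126).

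For antigen presentation, B2m, the light chain of class I molecules, was the brightest member. B2m measured 12.71, 12.51 and 12.35 at 0 h, 12.30, 11.84 and 11.80 at 12 h and 13.56, 13.33 and 13.29 at 48 h in Sdc4-/- cells. WT cells gave B2m values of 12.59 and 11.93 at 0 h, 9.14, 4.50 and 11.08 at 12 h and 11.998, 11.50 and 12.04 at 48 h. WT 12 h replicate 2 (4.50) stood far below, and on that array the 3' Actb control probe set read 3.98, against 8.37 to 13.38 on the other arrays used. B2m was higher in Sdc4-/- cells at 12 h by 3.74 ± 1.13 (SE, adjusted p = 0.04), a call lost in 14 of 17 fits without 1 array. Tapbp, or tapasin, which loads peptide onto class I molecules, measured 8.60, 8.48 and 7.96 at 0 h, 7.57, 6.76 and 5.79 at 12 h and 8.23, 8.01 and 7.45 at 48 h in Sdc4-/- cells. WT cells gave Tapbp values of 7.47 and 6.996 at 0 h, 5.11, 4.85 and 3.19 at 12 h and 6.74, 5.56 and 6.70 at 48 h. At 12 h and 48 h the Sdc4-/- arrays all lay above the WT arrays, by 2.32 ± 0.54 (SE, adjusted p = 0.0108) at 12 h, while the 48 h difference did not pass (1.56 ± 0.54, SE, adjusted p = 0.127). Tapbp fell in WT cells at 12 h by 2.85 ± 0.60 (SE, adjusted p = 0.00338). Tap1 was higher in Sdc4-/- cells at 48 h by 1.72 ± 0.36 (SE, adjusted p = 0.0175), at 4.75 to 6.34 in Sdc4-/- cells and 3.70 to 4.16 in WT cells. That call was lost with the mean of its 4 probe sets, all 18 arrays, only the compared groups, quantile normalisation or the covariate. It was kept in 14 of 17 fits without 1 array.

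Of the remaining members, Ifi35 measured 11.39, 11.22 and 10.63 at 0 h, 8.44, 9.09 and 10.07 at 12 h and 11.95, 11.63 and 11.39 at 48 h in Sdc4-/- cells. WT cells gave Ifi35 values of 11.48 and 10.03 at 0 h, 6.80, 3.20 and 3.17 at 12 h and 10.41, 6.86 and 10.24 at 48 h. WT 12 h replicates 2 and 3 were at the floor, and replicate 2 at 48 h lay over 3 units below the other WT arrays of that time. Ifi35 fell in WT cells at 12 h by 6.36 ± 1.16 (SE, adjusted p = 0.00128), and was higher in Sdc4-/- cells at 12 h by 4.81 ± 1.04 (SE, adjusted p = 0.0069). Parp14, a mono-ADP-ribosyltransferase, measured 9.68, 9.77 and 8.88 at 0 h, 9.08, 7.03 and 8.24 at 12 h and 9.37, 8.66 and 8.93 at 48 h in Sdc4-/- cells. WT cells gave Parp14 values of 9.55 and 8.40 at 0 h, 4.14, 4.60 and 4.04 at 12 h and 6.58, 6.84 and 8.31 at 48 h. The 3 WT 12 h arrays agreed closely and lay below all others. Parp14 fell in WT cells at 12 h by 4.72 ± 0.61 (SE, adjusted p = 0.000133) and was higher there at 48 h than at 12 h by 2.98 ± 0.55 (SE, adjusted p = 0.00361). It was higher in Sdc4-/- than in WT cells at 12 h by 3.86 ± 0.55 (SE, adjusted p = 0.000558), the smallest adjusted p of the members in that comparison, and the 12 h changes differed by 3.39 ± 0.82 (SE, adjusted p = 0.0201). With the mean of its 2 probe sets, neither this difference of changes nor the WT difference between 48 h and 12 h passed. Xaf1, an antagonist of apoptosis inhibitors, spread widely within groups, from 5.44 to 9.17 in Sdc4-/- cells at 48 h and 3.81 to 6.88 in WT cells at 48 h, and was called once, lower at 12 h in WT cells (-3.83 ± 1.35, SE, adjusted p = 0.0423), a call kept in 8 of 17 fits without 1 array.

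The ISRE windows shown above were set beside the 48 h comparison. Among measured members with a listed promoter, 5 of 15 with the ISRE letters were called higher in Sdc4-/- cells (median difference 1.70), against 6 of 12 without them (median 1.91).

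The rest of the pathway was read from lists of other genes. Values of the interferon genes themselves were low. Of 8 measured ligand genes 0 were called by limma between Sdc4-/- and WT cells at 48 h or at 0 h (0 at an unadjusted p under 0.05 at either time) and 1 was called lower in Sdc4-/- cells at 12 h, and the highest value on any array used was that of Ifnb1 (3.98 to 6.69 in Sdc4-/- cells and 3.20 to 4.89 in WT cells at 0 h, 3.24 to 5.02 in Sdc4-/- cells and 3.26 to 3.31 in WT cells at 48 h). Of all genes 10.4% were called lower in Sdc4-/- cells at 12 h. Ifng, the type II interferon, did not exceed 3.11. Of the 6 receptor genes 2 were called higher in Sdc4-/- cells at 48 h, Ifngr1 by 1.00 ± 0.22 (SE, adjusted p = 0.024) and Il10rb by 1.69 ± 0.43 (SE, adjusted p = 0.0452). At that time 4.7% of all genes were called higher, and 10.2% of those averaging 4 or more. Ifnar2, a chain of the type I receptor, averaged 6.03 ± 0.53 in Sdc4-/- cells and 2.86 ± 0.01 in WT cells at 12 h (SD, n = 3 each), and differed by 3.17 ± 0.28 (SE, adjusted p = 2.45e-05). At 48 h it averaged 7.66 ± 0.26 in Sdc4-/- cells and 6.61 ± 0.11 in WT cells (1.04 ± 0.28, SE, adjusted p = 0.0528). Ifnar1 and Ifngr2 were not called between the genotypes at any time.

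For the lists that follow, 4.7% of all genes were called higher and 1.43% lower in Sdc4-/- cells at 48 h, and 8.68% higher at 12 h. Of genes averaging 4 or more, 10.2% were called higher at 48 h and 24.1% at 12 h. Of 10 signal transducers 1 was called higher in Sdc4-/- cells at 48 h, the kinase Jak1, by 3.26 ± 0.52 (SE, adjusted p = 0.00422), and 2 at 12 h (Jak2 and Ptpn6). Of 16 pattern recognition genes 2 were called higher at 48 h, Ddx58, which encodes the RNA sensor RIG-I, by 2.24 ± 0.36 (SE, adjusted p = 0.00436) and the endosomal receptor Tlr7 by 1.51 ± 0.38 (SE, adjusted p = 0.0402). For Ddx58 the 48 h changes also differed, by 2.77 ± 0.54 (SE, adjusted p = 0.0142). Of 41 other interferon-induced genes 9 were called higher and 1 lower in Sdc4-/- cells at 48 h, with a median difference of 1.04, and those with the smallest adjusted p were Parp12 (3.16 ± 0.47, SE, adjusted p = 0.00291), Rtp4 (3.41 ± 0.54, SE, adjusted p = 0.00403) and Ly6e (3.03 ± 0.49, SE, adjusted p = 0.00446). Within WT cells 22 of these 41 were called lower at 12 h than at 0 h and 1 higher. There 20.8% of all genes were called lower and 19.6% higher, and 44.6% of those averaging 4 or more lower. Within Sdc4-/- cells 5 were called lower and 1 higher, where 7.23% of all genes were called lower and 1.48% higher, and 14.8% of those averaging 4 or more lower.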

How the data were processed

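Sorted muscle cells were profiled on 18 Affymetrix arrays, and the authors deposited log2 values normalised with GCRMA over the raw array files. GCOS and GCRMA are named in the submitters' processing notes, with versions not given in the sources used here. Probe sets were named from the platform annotation: 34958 carried 1 symbol, 932 several and 9211 none. 17 arrays were used, leaving out WT 0 h replicate 3. The members and all lists were chosen with earlier results of these data known. A linear model with 6 groups was fitted to 45101 probe sets with limma 3.58.1 in R 4.3.3 (11 residual degrees of freedom, moderated by eBayes), contrasts were Benjamini-Hochberg adjusted over all probe sets, and an adjusted p under 0.05 was a call. Scripts were tested on simulated data. Every array's value was given for the 2 members with the highest mean in each role, every member called for Sdc4-/- 12 h against 0 h, the called members for the difference of 12 h changes, and at most 4 per other comparison, taken from the called members by adjusted p. Other pathway genes were named up to 3 per list and comparison. Alternatives tried were the inclusion of all 18 arrays, a fit restricted to the compared groups, a trended and robust eBayes, quantile normalisation, a 75th percentile shift, a filter at a mean of 4, other probe set choices, the hybridization controls as a covariate, a replicate block and leaving out each array. The number of arrays limits the precision.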

Additional observations from a re-analysis of the deposited data

Results flagged for a closer look

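The change from 0 h differed between Sdc4-/- and WT cells, by a test of the difference itself in limma, for 6 results. For the 12 h change these were Irgm1 (2.81, adjusted p = 0.00426), Parp14 (3.39, adjusted p = 0.0201) and Irf1 (3.72, adjusted p = 0.0299). For the 48 h change these were Irgm1 (3.78, adjusted p = 0.00127), Ifit2 (3.06, adjusted p = 0.033) and Ifit3 (2.92, adjusted p = 0.0454). All are on the log2 scale and positive, meaning a more positive change in Sdc4-/- cells. Of genes averaging 4 or more, 808 of 6279 were called in this direction for the 12 h change and 310 for the 48 h change. Of the 28 members averaging 4 or more, 3 were called for each. Both Irgm1 results passed in each of 17 fits without 1 array, Parp14 in 16, Irf1 in 12, Ifit2 in 10 and Ifit3 in 6. Parp14, Irf1, Ifit2 and Ifit3 no longer passed without WT 0 h replicate 1. With all 18 arrays none of the 6 passed, and none passed with the hybridization controls as a covariate.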

How the results depend on the processing

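With all 18 arrays, counts of members called (limma) were 12 for WT 12 h against 0 h, 1 for WT 48 h against 0 h, 1 for Sdc4-/- 12 h against 0 h, 3 for WT 48 h against 12 h, and 0 for Sdc4-/- against WT at 0 h and for both differences of changes, while Sdc4-/- against WT kept 11 at 48 h and 10 at 12 h. With the hybridization controls as a covariate, counts were 1, 4 and 1 for WT 12 h against 0 h, 48 h against 0 h and 48 h against 12 h, 4 for Sdc4-/- 48 h against 12 h, 2 and 0 for Sdc4-/- against WT at 12 h and 48 h, and 1 (not a member flagged above for that change) and 0 for the differences of the 12 h and 48 h changes. Both together, chosen after seeing the data, gave 1, 0 and 2 for the same WT contrasts, 0, 1 and 0 for Sdc4-/- against WT at 0, 12 and 48 h, and 0 for both differences of changes. Under it Eif2ak2 turned to -0.84 at 12 h and -0.67 at 48 h in WT cells, and Tap1 and Xaf1 to 0.082 and 0.70 at 12 h. Tap1 at 12 h in WT cells was 0.0047 with the mean of its probe sets. Further quantile normalisation gave 10, 4 and 2 for the WT contrasts, 0, 1 and 4 for the Sdc4-/- contrasts in the same order, 1, 6 and 2 for Sdc4-/- against WT at 0, 12 and 48 h and 1 for the difference of 48 h changes. Fitting only the groups compared gave 1 for Sdc4-/- 12 h against 0 h, 0 for WT and 3 for Sdc4-/- 48 h against 12 h, 1, 3 and 4 for Sdc4-/- against WT at 0, 12 and 48 h, and 6 for the difference of 48 h changes (4 higher and 2 lower, 1 of them among the 3 called with all groups). A mean of at least 4 gave 8 and the 75th percentile shift 9 for Sdc4-/- 12 h against 0 h, and that filter 5 for the difference of 12 h changes. Calls over all 18194 genes moved as well. For Sdc4-/- against WT at 48 h, 1115 were called on the 17 arrays, 490 on all 18 and 114 with the covariate. Quantile normalisation gave 344 there and fitting only the groups compared 773. For WT 12 h against 0 h the counts were 7357, 3918, 233, 4866 and 4063 in that order. The causes were not tested.

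The replicate numbers did not pair the arrays (same-number correlations of deviations -0.13 to 0.17, different-number -0.19 to 0.19). With a replicate block 5 members were called for Sdc4-/- 12 h against 0 h and 1 for Sdc4-/- against WT at 0 h, and 74 of 83 calls were kept.

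Leaving out 1 array gave 14 to 19 and 2 to 10 calls for WT 12 h and 48 h against 0 h, 1 to 5 and 3 to 5 for Sdc4-/- 12 h and 48 h against 0 h, 4 to 7 for WT and 4 to 10 for Sdc4-/- 48 h against 12 h, 0 to 2, 7 to 13 and 6 to 14 for Sdc4-/- against WT at 0, 12 and 48 h, and 1 to 7 and 1 to 6 for the differences of 12 h and 48 h changes. The 75th percentile shift moved the median of all genes to 0.42 for WT 48 h against 0 h and -0.28 for Sdc4-/- against WT at 48 h, where 16 members were called relative to it.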

Other observations

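The WT 0 h array that was left out read lower over the members than the 2 used. Its member mean was 5.22, against 6.81 and 6.52 on the WT 0 h arrays used, its hybridization controls averaged 12.80, against 8.94 and 7.86, and 4512 of its probe sets exceeded 5, against 7620 and 7213.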
